A study of Mus musculus with 9 samples.

Results

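The genes described here are 9 components of hedgehog signalling: the receptor gene Ptch1, the ligand-binding inhibitor gene Hhip, the transcription factor genes Gli1, Gli2 and Gli3, the transducer gene Smo, and the co-receptor genes Boc, Cdon and Gas1. They were chosen by symbol, and each of the 9 matched 1 of the 24102 rows of the deposited expression table. RNA was sequenced from green cells that had been sorted after digestion of limbs of E12.5 mouse embryos. Mutant cells had the genotype Shox2(Cre/-);Rosa(mTmG), with Cre at 1 Shox2 allele and a mutant second allele, and control cells had the genotype Shox2(Cre/+);Rosa(mTmG). The mutants thus lacked both normal Shox2 alleles, and the controls lacked 1 of them. Cre is driven by the Shox2 locus and turns on the green fluorescence of the mTmG reporter for good, so the sort takes cells that express or once expressed Shox2, and not the whole limb. The labels list 9 samples: 4 mutants, 3 controls and 2 wild-type whole limbs, of which the whole limbs were not analysed here. The table has 6 value columns, a mutant and a control column from each of 3 litters. Litter 1 has 2 mutant samples in the labels, and whether its mutant column is 1 of them or both is not stated. The labels do not say how many embryos made up a sample.

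Hedgehog ligands bind PTCH1, which otherwise keeps the membrane protein SMO inactive, and SMO then controls the GLI transcription factors at the primary cilium. GLI1 is an activator, GLI2 acts mainly as an activator, and GLI3 is largely cut to a repressor when no ligand is present. Ptch1, Gli1 and Hhip are themselves transcribed in response to the signal and serve as readouts of it, while in the mouse neural tube Boc, Cdon and Gas1 are held down by it. In the limb bud the ligand of the posterior margin is Sonic hedgehog, and in the forming skeleton it is Indian hedgehog, which is made by maturing chondrocytes and received by the perichondrium and by dividing chondrocytes.

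Among the members, Ptch1 was lower in the mutants and Boc and Gli3 were higher in them, each with no overlap between the 3 mutant and the 3 control columns. Their mutant means were 66.5%, 139% and 128% of the control means for Ptch1, Boc and Gli3. Of all tested rows, 5.03% were lower and 4.22% higher without overlap. Gli1 was lower, and Cdon higher, in the mutant of each litter, with overlapping groups. Of all tested rows, 22.3% were lower in all 3 litters and 15.7% higher, so the 2 of 9 members lower were near that share. In a fit that pairs the columns by litter, Gli1 had the lowest limma adjusted p of the 9 members, 0.0848. Hhip, Gli2, Smo and Gas1 differed in direction between litters. Over all 3 litters no member passed the threshold adjusted over all genes, so these are measured differences in 3 litters and not calls.

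The promoters of Ptch1 and Gli3 are shown because these are the members with no overlap between groups, in opposite directions, that have an entry in the RefSeq promoter table (GRCm38.p6), which holds 7 of the 9 members. Each sequence is the 250 bases before an annotated start, 5′ to 3′ on the gene's strand. Ptch1 lies at chr13:63565736-63565985 on the minus strand, and Gli3 at chr13:15463473-15463722 on the plus strand. Capitals mark the letters TAAT or ATTA, the core that many homeodomain proteins such as SHOX2 recognise.
Ptch1: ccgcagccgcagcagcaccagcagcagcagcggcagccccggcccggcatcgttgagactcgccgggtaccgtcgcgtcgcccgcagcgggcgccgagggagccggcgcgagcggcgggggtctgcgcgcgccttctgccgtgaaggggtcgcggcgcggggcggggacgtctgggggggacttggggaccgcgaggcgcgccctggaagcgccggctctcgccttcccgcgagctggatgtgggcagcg
Gli3: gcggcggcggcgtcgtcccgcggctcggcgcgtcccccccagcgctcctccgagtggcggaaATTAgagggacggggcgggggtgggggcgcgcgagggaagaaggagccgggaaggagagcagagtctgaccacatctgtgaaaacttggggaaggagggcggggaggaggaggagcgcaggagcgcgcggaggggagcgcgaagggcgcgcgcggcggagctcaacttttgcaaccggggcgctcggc
The Gli motif GACCACCCA was searched on both strands, as was TAAT, and no member's window held both. The Gli motif was in none of the 7 members' windows and in 74 of all 32851 windows, or 0.225%. TAAT was in 1 of the 7 members' windows, that of Gli3, and in 54.9% of all windows. The Ptch1 window was 78.4% G and C with 41 CpG dinucleotides, and the Gli3 window was 72.8% G and C with 34. The expression table itself is on mm9 and carries no coordinates, so these windows are not tied to the start sites used in these cells.

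Values are FPKM, fragments scaled by transcript length and by sequencing depth, so that levels of different genes can be set side by side. Read depth per column is not given by such values. The header states the normalisation separately above each litter, so levels across litters may rest on separate scalings, while the mutant and control of a litter share one. Overlap of groups, and the exact permutation test, compare columns across litters and so may depend on these scalings. Shox2, the mutated gene, was at 16.7, 18.3 and 96.9 FPKM in the mutants of litters 1, 2 and 3, against 217, 222 and 210 FPKM in their controls, so the litter 3 mutant kept 46.2% of its control's level. Of the 5 limb mesenchyme markers matched in the table (Prrx1, Twist1, Tbx5, Tbx4 and Msx1), every one was detected in every column, with summed levels of 318 to 521 FPKM in the mutants and 320 to 466 FPKM in the controls.

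The members covered a wide range of levels. In the mutants, Gas1, a membrane-anchored co-receptor, stood highest at 249 ± 39.1 FPKM (SD, n = 3). Smo followed at 78.7 ± 11.0 FPKM, Boc at 69.5 ± 7.04 FPKM and Cdon at 64.2 ± 5.44 FPKM, and the ranges of Smo and Boc overlapped, as did those of Boc and Cdon. Gli3 was next at 29.2 ± 2.18 FPKM, and its lowest mutant value, 26.8 FPKM, lay above the highest value of Gli2 in the mutants, 23.2 FPKM. Gli2 (19.3 ± 5.36 FPKM), Gli1 (15.5 ± 7.62 FPKM) and Ptch1 (15.4 ± 2.46 FPKM) overlapped, and Hhip was lowest at 2.46 ± 0.706 FPKM. In the controls the order was Gas1 (222 ± 2.98 FPKM), Smo (83.7 ± 7.75 FPKM), Cdon (51.2 ± 11.1 FPKM) and Boc (50.1 ± 6.11 FPKM), of which Cdon and Boc overlapped. Then came Gli1 (25.8 ± 10.7 FPKM), Ptch1 (23.1 ± 1.72 FPKM), Gli3 (22.8 ± 3.07 FPKM) and Gli2 (18.7 ± 2.24 FPKM), whose ranges overlapped at each step, and last Hhip at 3.23 ± 0.929 FPKM. Gli3 thus stood apart above Gli2, Gli1 and Ptch1 in the mutant columns and within their ranges in the control columns.

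**Figure D1:**
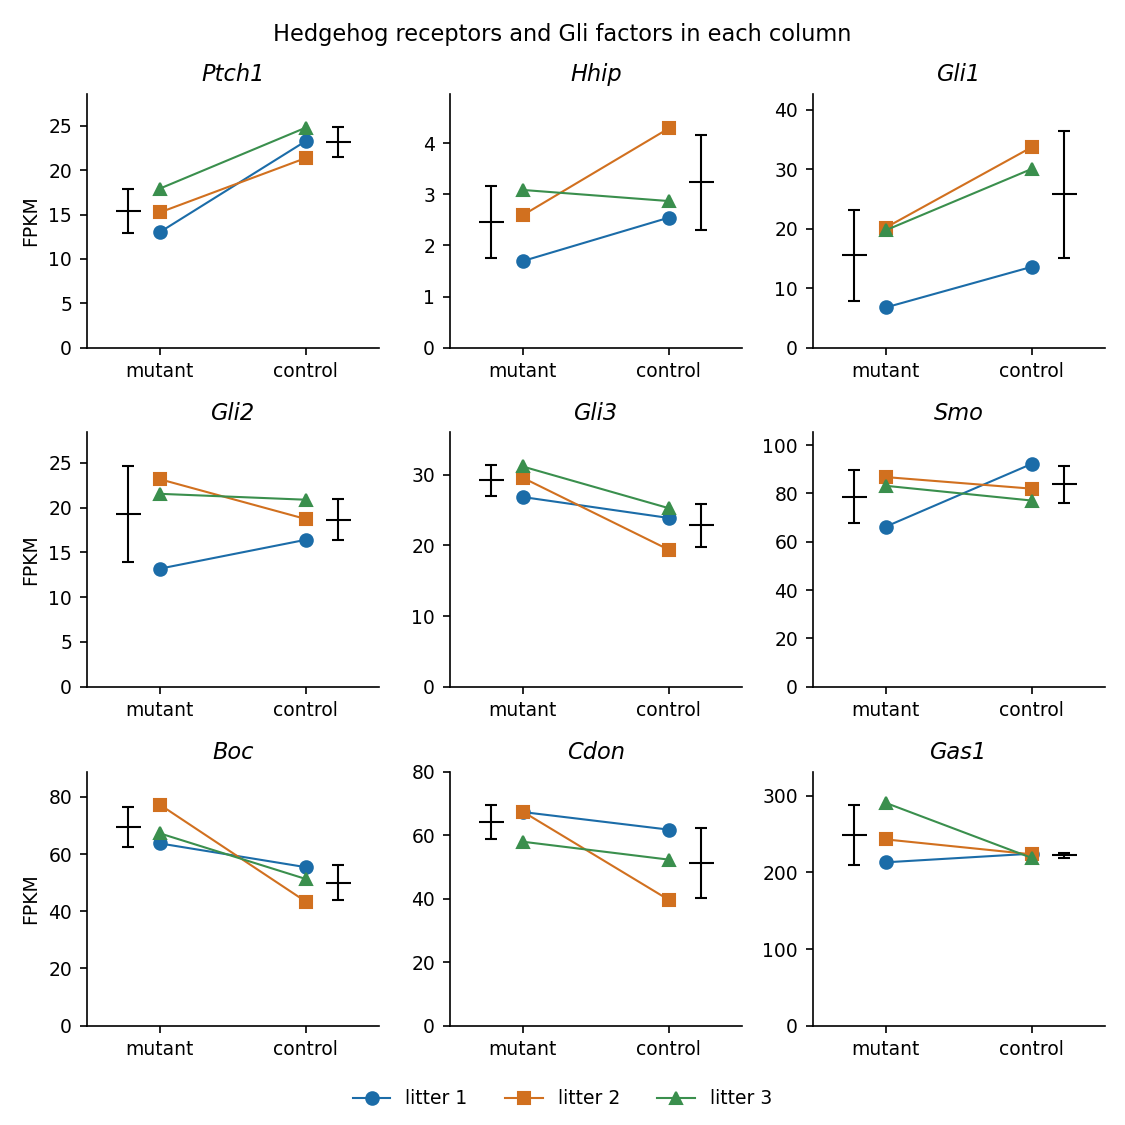
FPKM of each of the 9 genes (y axes from 0, each with its own scale) in the mutant and control column of litters 1, 2 and 3, joined by litter, with the mean and SD of 3 columns beside each group. Ptch1 lines run upward from mutant to control in all 3 litters, as do those of Gli1, and the lines of Gli3, Boc and Cdon run downward in all 3.

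Ptch1 encodes the receptor and is a target of the pathway. It was at 13.0, 15.2 and 17.9 FPKM in the mutants of litters 1, 2 and 3, against 23.3, 21.4 and 24.8 FPKM in the controls. The highest mutant value was below the lowest control value. The mutant had 55.9% of its control's level in litter 1, 71.3% in litter 2 and 72.3% in litter 3. The difference of log2(FPKM + 1), mutant minus control, was -0.57 (SE 0.16), lower in 3 of 3 litters, with a limma adjusted p of 0.962, or 0.166 in the fit with a litter block. Before adjustment limma gave p = 0.00966, or 0.00215 with the block, and an exact two-sided permutation test gave 0.1, which is the smallest value possible for 3 columns in each group.

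Gli1, the activator whose transcription depends on the signal, was at 6.75, 20.2 and 19.7 FPKM in the mutants of litters 1, 2 and 3, against 13.6, 33.7 and 30.0 FPKM in the controls. Both litter 1 columns were low, and the litter 1 control lay below the litter 2 and litter 3 mutants, so the groups overlapped. Within a litter the mutant had 49.7%, 59.9% and 65.7% of its control in litters 1, 2 and 3. The difference on the log2(FPKM + 1) scale was -0.74 (SE 0.49), lower in 3 of 3 litters, with a limma adjusted p of 1.00. It was -0.26 without the litter 1 mutant and -1.13 without the litter 1 control. In the fit with a litter block the SE was 0.11 and the limma adjusted p 0.0848, the lowest of the 9 members. Before adjustment that fit gave p = 0.000393, where the exact permutation test, which ignores litter, gave 0.3. The other gene of the table with exons across Gli1, on the opposite strand in GENCODE vM21, is Arhgap9. Whether the counting used strand is not stated in the labels or headers. Arhgap9 was at 0.956 to 1.46 FPKM in the mutants and 0.0384 to 1.15 FPKM in the controls.

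Hhip encodes a membrane protein that sequesters ligand and is also a target. It was at 1.69, 2.59 and 3.09 FPKM in the mutants of litters 1, 2 and 3, against 2.54, 4.29 and 2.87 FPKM in the controls. It was lower in litters 1 and 2 and higher in litter 3, where the mutant had 108% of its control. Its log2 difference was -0.29 (SE 0.23, limma adjusted p = 1.00), and the exact permutation p was 0.5. Leaving out litter 2 gave -0.16, and leaving out litter 3 gave -0.48.

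Gli3, the main source of Gli repressor in the limb, was at 26.8, 29.6 and 31.2 FPKM in the mutants of litters 1, 2 and 3, against 23.9, 19.4 and 25.3 FPKM in the controls. Every mutant column was above every control column. The log2 difference was 0.35 (SE 0.15), higher in 3 of 3 litters, with a limma adjusted p of 1.00, or 0.384 in the blocked fit. Without the litter 2 pair it was 0.23. Before adjustment limma gave p = 0.0575, or 0.0253 with the block, and the exact permutation test gave 0.1. Gli2 was at 13.2, 23.2 and 21.5 FPKM in the mutants, against 16.4, 18.7 and 20.9 FPKM in the controls, and was lower in litter 1 and higher in litters 2 and 3. Its log2 difference was 0.01 (SE 0.23, limma adjusted p = 1.00), and the sign changed when single columns were left out.

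Boc and Cdon encode related co-receptors of the immunoglobulin superfamily that bind the ligand. Boc was at 63.8, 77.3 and 67.3 FPKM in the mutants of litters 1, 2 and 3, against 55.4, 43.4 and 51.3 FPKM in the controls. Each mutant column was above each control column, and the difference was largest in litter 2, at 178% of its control, against 115% in litter 1 and 131% in litter 3. The log2 difference was 0.47 (SE 0.15), higher in 3 of 3 litters, with a limma adjusted p of 1.00, or 0.331 in the blocked fit. Without the litter 2 pair it was 0.29. Before adjustment limma gave p = 0.0207, or 0.0143 with the block, and the exact permutation test gave 0.1. Cdon was at 67.3, 67.4 and 58.0 FPKM in the mutants, against 61.8, 39.6 and 52.3 FPKM in the controls. The litter 1 control was above the litter 3 mutant, so the groups overlapped, and the 3 litters shared the direction. The log2 difference of Cdon was 0.34 (SE 0.19), with a limma adjusted p of 1.00, or 0.439 in the blocked fit. Before adjustment the blocked limma fit gave p = 0.0610 for Cdon, and the exact permutation p was 0.2. Leaving out the litter 2 pair, where the mutant had 170% of its control, left a Cdon difference of 0.13.

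Gas1 and Smo did not part the groups. Gas1 was at 213, 243 and 291 FPKM in the mutants of litters 1, 2 and 3, against 224, 224 and 219 FPKM in the controls. The controls lay within 1.03-fold of each other and the mutants within 1.36-fold, on both sides of the controls, and the log2 difference was 0.15 (SE 0.17, limma adjusted p = 1.00). Smo was at 66.2, 86.8 and 83.2 FPKM in the mutants, against 92.2, 82.0 and 77.0 FPKM in the controls. It was lower in litter 1 and slightly higher in litters 2 and 3, with a log2 difference of -0.09 (SE 0.16, limma adjusted p = 1.00).

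**Figure D2:**
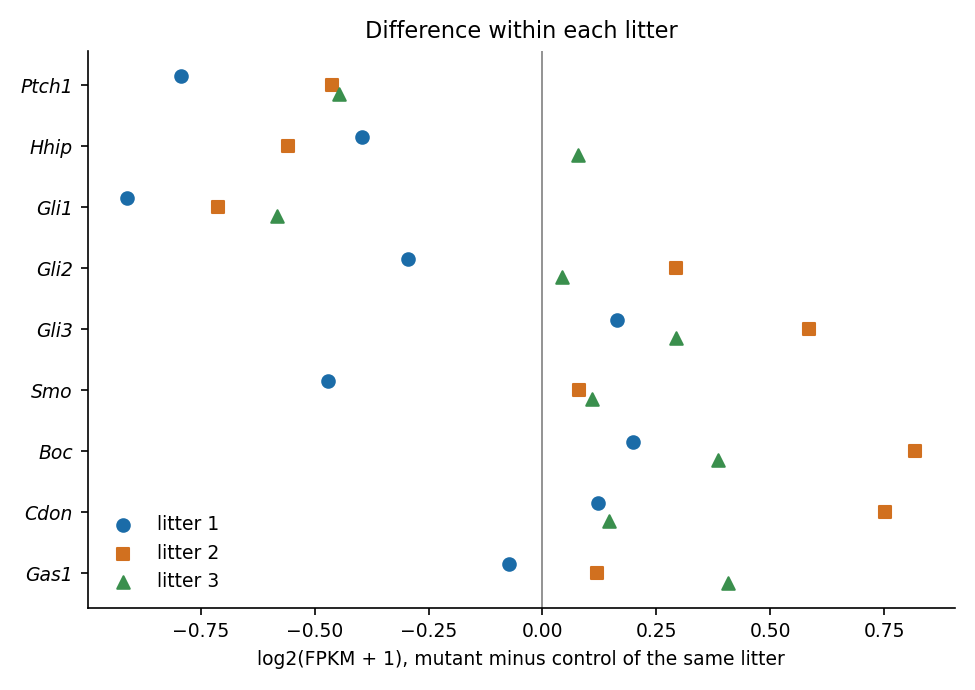
Difference of log2(FPKM + 1), mutant minus control of the same litter (x axis), for each gene (y axis), 1 point per litter. Ptch1 and Gli1 lie left of 0 in litters 1, 2 and 3, Gli3, Boc and Cdon right of 0 in all 3, and the litter 2 points of Gli3, Boc and Cdon lie farthest right at 0.58, 0.82 and 0.75.

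Ratios within a column do not depend on how columns were scaled. They were chosen with these values known and are given as a description. The Ptch1 to Boc ratio was 0.204, 0.197 and 0.266 in the mutants of litters 1, 2 and 3, against 0.420, 0.492 and 0.483 in the controls. The log2 ratio was lower by 1.04, 1.32 and 0.86 in the mutants of litters 1, 2 and 3. The groups did not overlap, which had to be so, since Ptch1 was lower and Boc higher without overlap. This ratio thus restates those differences and adds no support to them. The Gli1 to Gli3 ratio was 0.251, 0.682 and 0.633 in the mutants, against 0.569, 1.74 and 1.19 in the controls. Gli1 exceeded Gli3 in the controls of litters 2 and 3 and in no mutant column, and the groups overlapped because the litter 1 control was low. The Ptch1 to Smo ratio, receptor over transducer, was 0.196, 0.176 and 0.215 in the mutants, against 0.252, 0.261 and 0.322 in the controls, with no overlap.

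**Figure D3:**
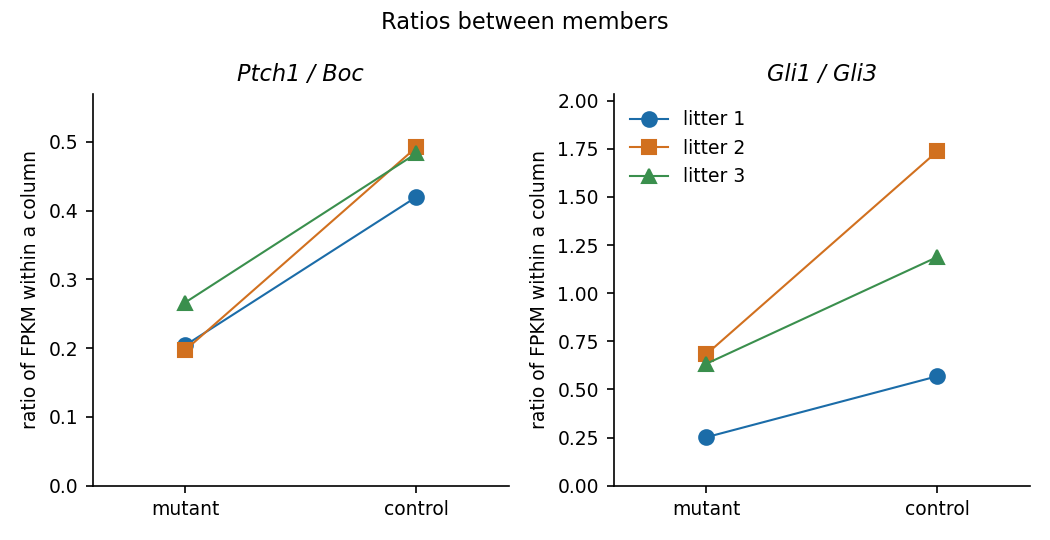
Ratio of FPKM within each column (y axes from 0) for Ptch1 over Boc and for Gli1 over Gli3, in the mutant and control column of litters 1, 2 and 3, joined by litter. Every line is higher at its control end, and for Ptch1 over Boc the highest mutant ratio, 0.266, lies below the lowest control ratio, 0.420. Both patterns follow from the values of the single genes.

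Against all 12314 tested rows, limma called 0 rows (0%) at an adjusted p under 0.05, with or without the litter block, and 0 of the 9 members. Before adjustment, at p under 0.05, limma had 1 of 9 members lower in the mutants, Ptch1, against 1.36% of rows, and 1 of 9 higher, Boc, against 2.21% of rows. With litter as a block there were 2 lower, Ptch1 and Gli1, against 6.29% of rows, and 2 higher, Gli3 and Boc, against 5.34%. Groups did not overlap for 1 of 9 lower, against 5.03% of rows, and for 2 of 9 higher, against 4.22%. The direction was shared by 3 litters for 2 of 9 lower, against 22.3% of rows, and for 3 of 9 higher, against 15.7%. The share of members lower in 3 litters was thus near that of all rows. The median log2 difference was 0.01 over the 9 members and -0.04 over all tested rows, since the members lay on both sides. All 9 members had 1 FPKM or more in all 6 columns, so the filter on low values removed none of them.

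**Figure D4:**
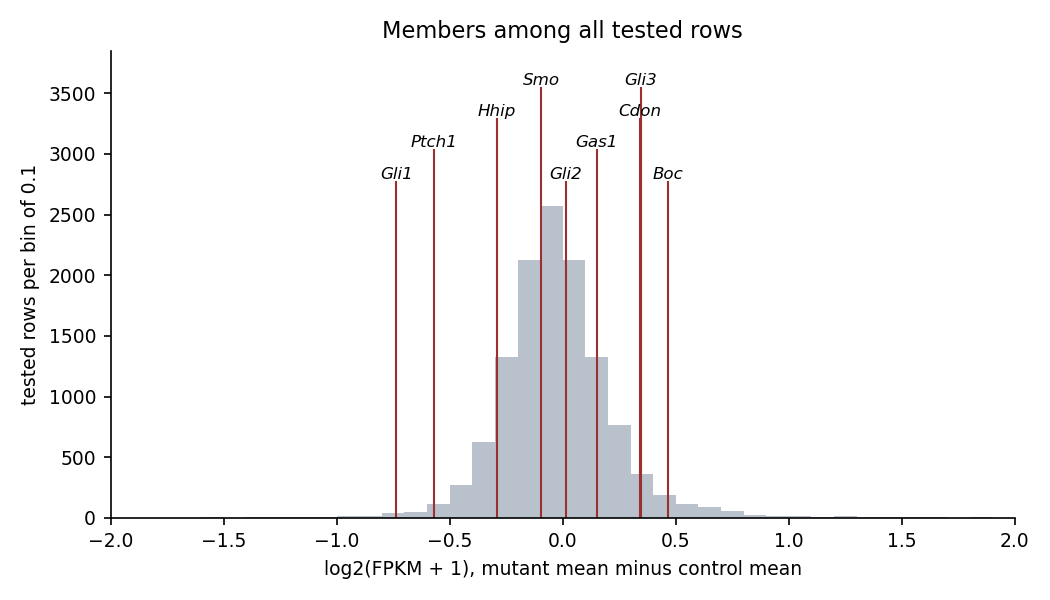
Number of tested rows (y axis) in bins of 0.1 of the log2(FPKM + 1) difference, mutant mean minus control mean (x axis, with 9 of 12314 rows beyond -2 or 2 not shown), with the 9 members as lines. Gli1 and Ptch1 stand in the left tail at -0.74 and -0.57, at percentiles 0.569 and 1.41 of all tested rows, and Boc in the right at 0.47, at percentile 96.5.

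The litters do not weigh equally in these counts. Without the litter 1 pair, 2 members were lower without overlap, Ptch1 and Gli1, where 20.1% of tested rows were, and 6 were higher, Gli2, Gli3, Smo, Boc, Cdon and Gas1, where 17.5% of rows were. Without the litter 2 pair, 1 was lower, Ptch1, and 2 higher, Gli3 and Boc, where 12% and 8.83% of rows were. Without the litter 3 pair, 1 was lower, Ptch1, and 3 higher, Gli3, Boc and Cdon, where 14.5% and 9.66% of rows were. In the litter 2 mutant Kdm5d and Eif2s3y, both on the Y chromosome, had 0 FPKM as listed, against 4.78 and 23.9 FPKM in its control. Xist, transcribed from the inactive X chromosome, was at 36.8, 178 and 68.4 FPKM in the mutants of litters 1, 2 and 3, against 12.1, 34.6 and 73.0 FPKM in the controls. Eif2s3y was at 22.4 and 14.4 FPKM in the mutants of litters 1 and 3, against 21.6 and 16.2 FPKM in the controls. Kdm5d was at 6.55 and 4.85 FPKM in these mutants, against 8.86 and 5.62 FPKM in the controls. In litter 2, and in litter 1 by Xist but not by absence of the Y genes, the sex make-up of the columns and the genotype cannot be told apart. With litter as a block and without the litter 2 pair, limma called 530 rows, Ptch1 (log2 difference -0.62, limma adjusted p = 0.000390) and Gli1 (-0.75, limma adjusted p = 8.55e-06) among them. Those 2 calls rest on 2 litters, which give little spread per gene, and they are not weighed against the share of all rows called. The SE of 0.13 for Ptch1 and for Gli1 in that fit rests mainly on a variance shared across genes. Over all alternatives the limma adjusted p ran from 0.000390 to 1.00 for Ptch1 and from 8.55e-06 to 1.00 for Gli1.

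The ligands of the pathway were low in these cells. Shh was at 0.0577, 0.0932 and 0.0643 FPKM in the mutants of litters 1, 2 and 3, and in the controls at 0.266 FPKM in litter 2 and listed at 0 in litters 1 and 3. Dhh, the desert hedgehog gene, was at 0.0536 to 0.0712 FPKM in the mutants and 0.0564 to 0.0950 FPKM in the controls. Ihh was at 0.526, 1.095 and 2.84 FPKM in the mutants of litters 1, 2 and 3, against 2.59, 2.52 and 4.37 FPKM in the controls. It was lower in 3 of 3 litters, with groups that overlapped through litter 3, and its log2 difference was -0.82 (SE 0.36, limma adjusted p = 1.00, or 0.189 in the blocked fit).

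Of 58 other pathway genes listed, all matched a row and 53 were tested. At an adjusted p under 0.05 limma called 0 of them, with or without the block. Before adjustment 2 were lower and 2 higher at p under 0.05, or 3.77% each, against 1.36% and 2.21% of all rows. With litter as a block 5 were lower and 4 higher, or 9.43% and 7.55%, against 6.29% and 5.34% of all rows. Groups did not overlap for 4 lower and 3 higher, or 7.55% and 5.66%, against 5.03% and 4.22% of all rows. In 3 of 3 litters 9 were lower and 10 higher, or 17.0% and 18.9%, against 22.3% and 15.7% of all rows. The shares without overlap and with a shared direction were near those of all rows, and none of these shares was tested. The median log2 difference was -0.00069 over these 53. It was -0.06 over the 6 tested genes of ligands and release, 0.01 over the 28 of transduction and cilium and -0.05 over the 18 responding genes. Gpc3, the 1 tested gene of reception, was at -0.08. These medians hide differences that go both ways. In the blocked limma fit, at p under 0.05 before adjustment, 4 of the 18 responding genes were lower and 3 higher. Of the 28 genes of transduction and cilium, 0 were lower and 1 higher. Of all rows, 6.29% were lower and 5.34% higher, and the lists were not tested against each other.

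Among responding genes, Bcl2, an inhibitor of apoptosis, was at 11.4 ± 0.801 FPKM in the mutants and 15.3 ± 1.25 FPKM in the controls (SD, n = 3 each). Prdm1, a transcriptional repressor, was at 1.70 ± 0.435 FPKM in the mutants and 2.77 ± 0.251 FPKM in the controls. Kif7 and Btrc belong to the list of transduction and cilium. Kif7, the cilium-tip kinesin that acts on Gli proteins, was at 8.73 ± 0.303 FPKM in the mutants and 10.5 ± 1.34 FPKM in the controls. Btrc, part of the ubiquitin ligase that marks GLI proteins, was at 10.2, 9.64 and 9.81 FPKM in the mutants of litters 1, 2 and 3, against 10.6, 10.6 and 10.5 FPKM in the controls. The log2 difference of Btrc was small, at -0.08 (SE 0.12). Bcl2, Prdm1, Kif7 and Btrc were the 4 listed genes lower without overlap, and none passed the adjusted threshold.

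Higher without overlap were Grem1, Efcab7 and Csnk1a1. Grem1, the BMP antagonist that links posterior hedgehog signals to the limb ridge, was at 12.8, 15.6 and 19.2 FPKM in the mutants of litters 1, 2 and 3, against 9.997, 8.49 and 12.7 FPKM in the controls. Its log2 difference was 0.56 (SE 0.21, limma adjusted p = 1.00, or 0.196 in the blocked fit). Efcab7, part of the complex that anchors EVC proteins at the cilium base, was at 5.39, 3.90 and 4.36 FPKM in the mutants of litters 1, 2 and 3, against 3.28, 2.88 and 2.84 FPKM in the controls. Csnk1a1, a kinase of SMO and GLI proteins, was at 199 ± 6.67 FPKM in the mutants and 175 ± 13.3 FPKM in the controls. Grem1 stood opposite to Ptch1, Bcl2 and Prdm1, but the responding genes as a list went both ways. Of the 18 tested, 5 were lower in the mutant of each litter, Bcl2 and Prdm1 among them, and 5 were higher, Grem1 among them. Of all tested rows, 22.3% were lower and 15.7% higher in this way.

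**Figure D5:**
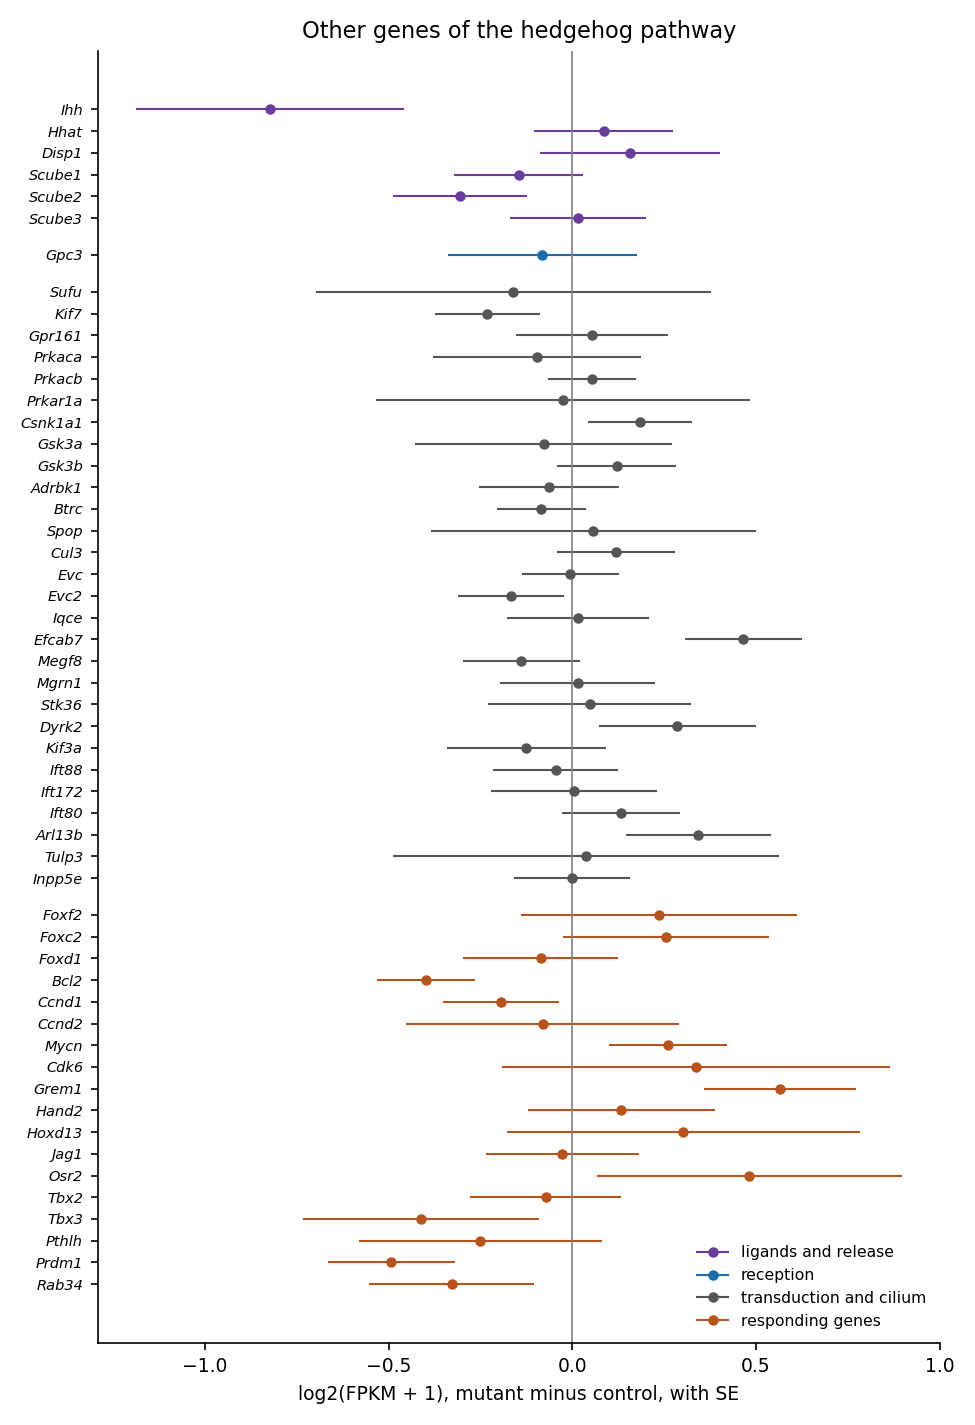
Difference of log2(FPKM + 1), mutant minus control, with its SE from limma (x axis), for the 53 tested pathway genes other than the 9 members (y axis), coloured by list. Ihh and Prdm1 lie farthest left at -0.82 and -0.49 and Grem1 farthest right at 0.56, while the 28 genes of transduction and cilium have a median of 0.01.

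Across the 6 columns, the rows whose log2 pattern was most like that of Ptch1, by Pearson r among 11014 singly named rows that averaged at least 2 FPKM, were Pgf (0.994), Aspn (0.993), Nol9 (0.988), Wnt2 (0.986) and Igfbp3 (0.984). These r values are descriptions over 6 columns that share litters. Aspn, which encodes the matrix protein asporin, was at 8.69, 9.71 and 11.8 FPKM in the mutants of litters 1, 2 and 3, against 16.2, 14.6 and 18.5 FPKM in the controls. Igfbp3, a binding protein of insulin-like growth factors, was at 52.4, 70.0 and 72.7 FPKM in the mutants, against 108, 95.9 and 109 FPKM in the controls. Shox2 itself was 21st (0.952), Ihh 63rd (0.922) and Gli1 1063rd (0.662), and Boc had an r of -0.700 with Ptch1. Among members, Gli3 and Boc were alike (0.913), as were Gli1 and Hhip (0.893) and Boc and Cdon (0.861).

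The tested genes of a list of hypertrophy and osteoblast markers were lower in the mutants, as Ptch1 and Gli1 were. Of 8 such markers, 6 were tested, Runx2, Sp7, Ihh, Panx3, Alpl and Spp1, and limma called 0 of them at an adjusted p under 0.05, with or without the block. All 6 were lower in the mutant of each litter, where 22.3% of all rows were. Their list summed to 7.58, 16.3 and 18.6 FPKM in the mutants of litters 1, 2 and 3, against 21.2, 42.0 and 38.3 FPKM in the controls. Col10a1 was at 0.157 FPKM or less in every column and Ibsp at 0.124 FPKM or less. Ibsp was listed at 0 in the litter 2 mutant and Col10a1 in the litter 2 control. The list thus does not show that hypertrophic chondrocytes or mature osteoblasts were present in either genotype. Chondrocyte markers summed to 610 to 1044 FPKM in the mutants and 689 to 795 FPKM in the controls, with a median log2 difference of 0.14 over 8 tested. In bulk samples, fewer cells of a type and less RNA per cell cannot be told apart. The part of the cell make-up in the Ptch1 and Gli1 values was not tested.

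Markers of other cell types differed between the mutant and control columns in both directions, and in litter 1 as well as litter 2. Surface ectoderm markers summed to 9.76, 13.0 and 9.06 FPKM in the mutants of litters 1, 2 and 3, against 8.84, 26.9 and 9.11 FPKM in the controls. Endothelial markers summed to 5.25, 5.19 and 5.18 FPKM in the mutants, against 5.59, 15.2 and 6.54 FPKM in the controls. These sums differed most in litter 2, where the mutant was lower. Muscle markers summed to 49.3, 48.6 and 70.6 FPKM in the mutants of litters 1, 2 and 3, against 29.3, 80.6 and 55.0 FPKM in the controls, and nerve and glia markers to 86.0, 62.9 and 60.4 FPKM in the mutants, against 54.5, 79.4 and 47.7 FPKM in the controls. Both sums were higher in the mutants of litters 1 and 3 and lower in the mutant of litter 2. A few abundant genes carry these sums. Acta1 was at 24.4 FPKM in the litter 3 mutant and 20.5 FPKM in its control, and Gap43 and Tubb3 at 39.3 and 35.1 FPKM in the litter 1 mutant. Of 7 tested nerve and glia genes, 2, Sox10 and Erbb3, were higher in the mutant of each litter and 0 lower. Of all tested rows, 15.7% were higher and 22.3% lower in this way. Red cell markers summed to 712, 382 and 229 FPKM in the mutants of litters 1, 2 and 3, against 489, 591 and 327 FPKM in the controls. Leukocyte markers summed to 10.1, 19.4 and 11.3 FPKM in the mutants, against 11.7, 12.6 and 15.6 FPKM in the controls. No marker of these lists was at 0 in all columns, limma called 0 of their tested genes at an adjusted p under 0.05, and their part in the differences of the members was not tested.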

How the data were processed

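Per the submitters' processing notes, the authors' tools were TopHat and Cuffdiff, and the build mm9. The sources used here give no versions, annotation, filters or strand use. The deposited values were taken as FPKM, the unit Cuffdiff reports, and per the file headers the authors normalised them by its geometric method, stated above each litter. Whole reads were looked for among rows under 0.15 FPKM: log2 ratios within 0.05 of 0 made up 4.14%, 3.06% and 23.9% of such rows in litters 1, 2 and 3, and ratios within 0.05 of -1, 0 or 1 made up 8.13%, 6.12% and 44.5%. Litter 3 thus showed steps that litters 1 and 2 did not. Steps of FPKM vary with transcript length, so whole reads were not recovered in any litter and depth is unknown.

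Mutant and control columns were compared in limma 3.58.1 (R 4.3.3) on log2(FPKM + 1), with eBayes set to follow an intensity trend. Rows with 1 FPKM or more in at least 3 of 6 columns were tested, and p-values were adjusted over all of them by the Benjamini-Hochberg method. This scale understates changes of low genes. Separate embryos or pools are not stated, so p-values measure the spread between these columns. Figures were drawn with matplotlib 3.10.9.

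The descriptions say that the number marks a litter, so it pairs the columns. Deviations from group means correlated at 0.873, 0.568 and 0.770 within litters 1, 2 and 3. The fit without the block was the planned main fit, and it ignores this pairing. The block is an alternative beside pseudocount, filters, scaling, trend, column weights and left-out columns or litters. Its values are given beside the main ones for several genes.

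Members, lists and tests were chosen with earlier results of these data known. Named genes are the 9 members, Shox2, the ligands, listed genes that passed or had the smallest p without overlap (up to 4 per direction), and the 5 rows most like Ptch1. Arhgap9, Eif2s3y, Kdm5d, Xist and the ratios were chosen after values were seen. A further pathway gene of the planned list is not reported here. The plan assumed 4 mutant samples, and the table has 3 mutant columns. The deposited gene list holds no values and was not used.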

Additional observations from a re-analysis of the deposited data

How the results depend on the processing

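Over 20 alternatives each (19 for Hhip), Ptch1, Hhip, Gli1, Gli3, Boc, Cdon and Gas1 kept their direction, with log2 differences of -0.68 to -0.45, -0.48 to -0.08, -1.13 to -0.26, 0.23 to 0.44, 0.29 to 0.60, 0.13 to 0.48 and 0.02 to 0.26. Hhip has no value at a mean of 5 FPKM or more. Gli2 and Smo changed sign. Leaving out single columns gave -0.13 to 0.25 for Gli2 and -0.17 to 0.024 for Smo. Gli2 was at -0.13 when litter 2 was left out and at -0.00135 when litter 3 was, with the same values under the replicate block. Smo was at 0.085 with column weights and at 0.095 without the litter 1 pair, with or without the replicate block. The causes were not tested.

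Limma's 0 called rows became 15 with column weights, 0 to 1 without single columns, and, with the replicate block, 0 over all litters, 530 with litter 2 left out and 28 with litter 3 left out. Without the litter 2 pair in that paired fit, 530 rows were called over all tested rows. Among them were 2 members, Ptch1 and Gli1, and 5 other pathway genes, Ihh and Tbx3 lower and Osr2, Grem1 and Efcab7 higher. No share of rows is given, because the filter on low values was applied anew to the columns of that fit. The counts of 2 members and 5 pathway genes are thus not weighed against all rows, and nothing is read from them. In the other alternatives run, 0 members and 0 pathway genes were called. The counts without overlap, recomputed by an alternative chosen after seeing the data, moved to 2 lower and 6 higher with litter 1 left out, where 20.1% and 17.5% of all rows were, and to 3 higher with litter 3 left out, where 9.66% of all rows were. With 3 columns a group and unknown depth, small differences could not be separated from the spread.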
